A study of Homo sapiens with 4 samples.

Results

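The 8 miRNAs described here are hsa-miR-142-3p, hsa-miR-142-5p, hsa-miR-223-3p, hsa-miR-150-5p, hsa-miR-144-3p, hsa-miR-144-5p, hsa-miR-451a and hsa-miR-486-5p, written without the species prefix from here on. They are known for their abundance in blood cells. They were taken by name from the 2080 mature miRNA names listed in 4 small RNA libraries of human colorectal cancer cells, and all 8 names were listed in every library. They come from 6 hairpins, and the other arms of 3 of these (miR-223-5p, miR-150-3p and miR-486-3p) were added to describe arm ratios. HT29 and HCT15 are established human colorectal adenocarcinoma lines of epithelial origin. Each line gave 1 library of spheres, grown in DMEM-F12 with N2 Plus Supplement, bFGF and EGF (10 ng/ml each), and 1 library of parental cells. Parental HT29 cells were grown in DMEM and parental HCT15 cells in RPMI, both with 10% FBS, so that medium and serum differed together with the culture form. The submitters call the spheres cancer stem cells derived from spheres. The questions were which blood-cell miRNAs these lines hold, from which arm, and whether spheres differed from parental cells.

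In a hairpin precursor, Dicer cuts out a duplex of a 5p and a 3p arm, and a strand of this duplex is kept in an Argonaute protein, where it represses messenger RNAs paired with its seed (bases 2 to 8). miR-142 is abundant in nearly all blood lineages, and both of its arms are known to be functional. miR-223 is a miRNA of myeloid cells, and miR-150 of mature lymphocytes. miR-144 and miR-451a are made from a shared transcript in red cell precursors; miR-451a is cut by AGO2 without Dicer and therefore has no second arm. miR-486 is known from red cell precursors and muscle.

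The miR-142 hairpin is shown because its leading arm differed between the lines. It lies at chr17:58331232-58331318 on the minus strand (RefSeq, GRCh38.p14) and is 87 bases long; capitals mark the 5p arm and then the 3p arm.
MIR142 hairpin: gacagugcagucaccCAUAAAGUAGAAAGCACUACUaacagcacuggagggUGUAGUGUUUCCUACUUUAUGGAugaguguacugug
The mature arms of the hairpins in the RefSeq table follow, to show how their seeds, in capitals, differ.
miR-142-5p: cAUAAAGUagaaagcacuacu
miR-142-3p: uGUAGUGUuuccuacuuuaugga
miR-223-5p: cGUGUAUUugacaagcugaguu
miR-223-3p: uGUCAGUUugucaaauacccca
miR-144-5p: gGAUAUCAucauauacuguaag
miR-144-3p: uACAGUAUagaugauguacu
No seed was shared among these 6 arms. Of 2370 mature miRNAs in the table, only miR-5590-3p shared the seed of miR-142-5p, and it was listed at 0 in all 4 libraries. No other mature miRNA in the table was nearer than 7 edits (bases changed, added or removed) to any of these 6 arms. miR-142-5p is 21 and miR-142-3p 23 bases long.

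The hairpins lie apart in the genome, except for miR-144 and miR-451a (GENCODE 29, GRCh38). MIR142 lies in an exon of the noncoding gene AC004687.1, antisense to an intron of TSPOAP1-AS1. MIR144 (chromosome 17, 28861533 to 28861618, minus strand) and MIR451A (chromosome 17, 28861369 to 28861440, minus strand) are 93 bases apart in an exon of the lincRNA AC024267.1. MIR223 (chromosome X, 66018870 to 66018979, plus strand) overlaps an exon of AL034397.3, and MIR150 (chromosome 19, 49500785 to 49500868, minus strand) in no other annotated gene. The 2 copies of miR-486 lie on opposite strands of the same stretch of chromosome 8, in an intron of ANK1, so reads of these copies cannot be told apart.

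Listed miRNA reads came to 12794274 in HT29 spheres, 5806540 in HT29 parental cells, 2317659 in HCT15 spheres and 3184716 in HCT15 parental cells. HT29 values were deposited as counts, and HCT15 reads were worked back from values deposited as RPKM, so levels of the lines are set side by side without a test. Levels are in CPM, counts per 1000000 listed miRNA reads of the library. Intervals are exact 95% intervals for counting error only, since each line and culture gave 1 library. The reads carry no molecular identifiers, and the intervals take each read as a separate draw. For HCT15 they rest on reads that were worked back and rounded. For a count of 0, in place of the exact interval, the limit used throughout is 3 reads (an approximate one-sided 95% bound), which is 0.234 CPM in HT29 spheres, 0.517 in HT29 parental cells, 1.29 in HCT15 spheres and 0.942 in HCT15 parental cells. Of miRNAs of intestinal epithelium (miR-192, miR-194, miR-215, miR-375 and the miR-200 family), all 8 listed names were above 3 reads in every library. Of all listed names, 42.2% passed this limit in HT29 spheres and 39.3% in HT29 parental cells. In HCT15 the share was 22.7% in spheres and 30.9% in parental cells. Both arms of miR-126, an endothelial and platelet miRNA, also passed in every library, so this limit cannot tell cell types apart. The epithelial names summed to 234361 CPM in HT29 spheres, 170867 in HT29 parental cells, 22677 in HCT15 spheres and 24293 in HCT15 parental cells. miR-192-5p supplied most of the HT29 sums, at 157860 CPM in spheres and 92120 in parental cells. miR-375 was higher in HCT15, at 7563 CPM in spheres and 10468 in parental cells, against 2424 and 896 in HT29. The other names were lower there. In HT29, miR-194-5p, miR-200a-3p and miR-200b-3p were lower in spheres than in parental cells, and the other names were higher.

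Of the 8 blood-cell miRNAs, 3 or fewer reached 10 CPM in any library, and miR-142-5p alone did so in both lines. HT29 held both arms of miR-142 and some miR-150-5p; HCT15 held miR-142-5p and miR-486-5p. In RNA from whole cultures, fewer cells that hold a miRNA and less of it per cell cannot be told apart. All 8 together summed to 486 CPM in HT29 spheres, 484 in HT29 parental cells, 63.0 in HCT15 spheres and 60.3 in HCT15 parental cells. In HT29, miR-142 made up 97.3% of that sum in spheres and 94.8% in parental cells. In HCT15 its share was 44.5% in spheres and 27.1% in parental cells, and miR-486-5p supplied nearly all of the rest. At 10 CPM or more were 2 of 8 members in HT29 spheres, 3 in HT29 parental cells, 2 in HCT15 spheres and 2 in HCT15 parental cells. Of all listed names, 17.0%, 19.5%, 14.8% and 17.1% were at that level in the same libraries. More than 3 reads were found for 6, 6, 3 and 3 of the 8 members in that order, against 42.2%, 39.3%, 22.7% and 30.9% of all listed names.

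**Figure D1:**
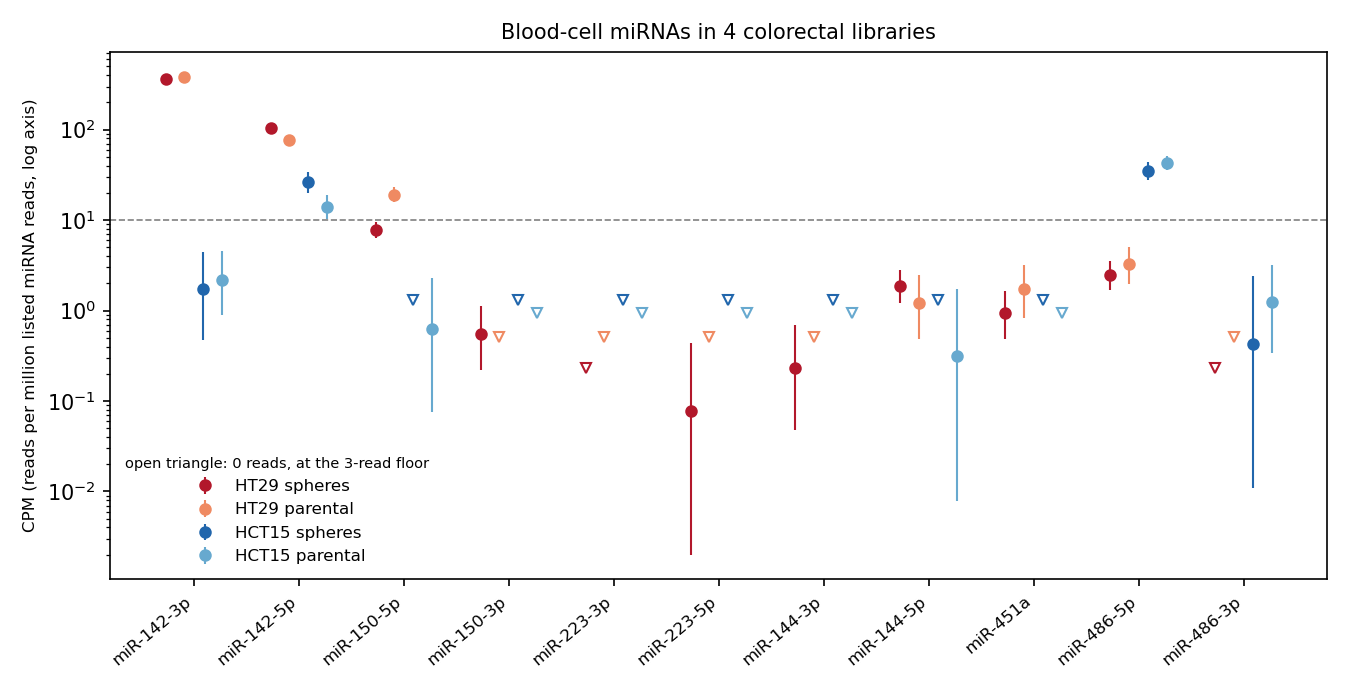
Level of each arm in CPM (log axis) in spheres and parental cells of HT29 and HCT15, with 1 library per point, exact 95% counting intervals, and open triangles at the 3-read limit for libraries with 0 reads. The dashed line is 10 CPM; miR-142-3p is at 367 and 381 CPM in HT29 and at 1.73 and 2.20 CPM in HCT15, whereas miR-486-5p is at 2.50 and 3.27 CPM in HT29 and at 34.9 and 43.0 CPM in HCT15.

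Among leukocyte miRNAs, miR-142-3p was at 367 CPM (4693 reads) in HT29 spheres and 381 CPM (2214 reads) in HT29 parental cells. It was at 1.73 CPM (4 reads) in HCT15 spheres and 2.20 CPM (7 reads) in HCT15 parental cells. It thus ranked 107 and 124 of 1921 names in HT29 spheres and parental cells, but 443 and 516 of 2041 in those of HCT15. miR-142-5p was at 106 CPM (1351 reads) in HT29 spheres and 77.3 CPM (449 reads) in HT29 parental cells. In HCT15 it was at 26.3 CPM (61 reads, interval 20.1 to 33.8) in spheres and 14.1 CPM (45 reads, interval 10.3 to 18.9) in parental cells. This arm was therefore above 10 CPM in all 4 libraries, which no other member was.

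miR-150-5p, which in lymphocytes is known to repress MYB, was at 7.74 CPM (99 reads, interval 6.29 to 9.42) in HT29 spheres and 19.1 CPM (111 reads, interval 15.7 to 23.0) in HT29 parental cells. In HCT15 it had 0 reads in spheres and 2 in parental cells. miR-223-3p had 0 reads in all 4 libraries. Its other arm had 1 read in HT29 spheres and 0 elsewhere. At these depths miR-223 was not detectable in either line.

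Of the miRNAs of red cell precursors, miR-486-5p was at 2.50 CPM (32 reads) in HT29 spheres and 3.27 CPM (19 reads) in HT29 parental cells. In HCT15 it was at 34.9 CPM (81 reads, interval 27.8 to 43.4) in spheres and 43.0 CPM (137 reads, interval 36.1 to 50.9) in parental cells. It was the member with the highest level in both HCT15 libraries. The mature miRNAs of the MIR144 and MIR451A pair did not exceed 1.88 CPM in any library. miR-451a had 12 reads in HT29 spheres, 10 in HT29 parental cells and 0 in both HCT15 libraries. miR-144-5p had 24 and 7 reads in HT29 spheres and parental cells, against 0 and 1 in those of HCT15, and miR-144-3p had 3 reads in HT29 spheres and 0 elsewhere. In HCT15, therefore, miR-486-5p was present without detectable miR-451a. In HCT15 spheres only 21 names stood at 1 read, against 195 in HCT15 parental cells, so a 0 listed there can hide a dropped read.

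A wider list held 8 more names, the arms of miR-342 and miR-155 and neighbours of the member hairpins. Of these, 1 was above 3 reads in each of the 4 libraries, and in each this was miR-155-5p, a miRNA of activated lymphocytes that is also found in tumours. It was at 57.8 CPM in HT29 spheres, 47.5 in HT29 parental cells, 1306 in HCT15 spheres and 1775 in HCT15 parental cells. HCT15, with less miR-142, thus held more miR-155-5p, though the cell line and the way the file was made cannot be told apart. miR-342-3p had 2 reads in HT29 spheres, and miR-342-5p had 0 in every library. The neighbours within 10 kb of member hairpins, miR-4736 beside MIR142 and miR-4732 and miR-451b beside MIR144 and MIR451A, had 0 reads throughout.

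Markers of other cells were compared as whole lists. Of 5 stromal miRNAs, 2, 3, 1 and 2 were above 3 reads in HT29 spheres, HT29 parental cells, HCT15 spheres and HCT15 parental cells. Their summed level was 7.43 CPM in HT29 spheres, 7.58 in HT29 parental cells, 15.1 in HCT15 spheres and 20.7 in HCT15 parental cells, and miR-214-3p was at 0 in all 4. The endothelial and platelet arms of miR-126 summed to 256, 293, 123 and 129 CPM in that order, with both arms above 3 reads in every library. Taken apart, miR-126-3p was at 147, 132, 8.63 and 12.2 CPM, and miR-126-5p at 109, 160, 114 and 117 CPM. miR-122-5p, the liver miRNA that is also carried in serum, did not exceed 0.625 CPM.

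The arm with more reads differed between the lines for miR-142. In HT29 the 3p arm led, with 3.47 times the reads of the 5p arm in spheres and 4.93 times in parental cells. In HCT15 the 5p arm led, with 15.2 times the reads of the 3p arm in spheres and 6.43 times in parental cells. The share of 3p reads was 77.6% (interval 76.6 to 78.7) in HT29 spheres and 83.1% (81.7 to 84.5) in HT29 parental cells. It was 6.15% (1.70 to 15.0) in HCT15 spheres and 13.5% (5.59 to 25.8) in HCT15 parental cells. The intervals of the lines did not overlap in either culture, although those of HCT15 rest on 65 and 52 reads of both arms.

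Arm ratios within a library do not depend on the scaling between libraries, but they do depend on how reads were assigned to arms, and the files of the lines were made in different ways. The difference in log2 (3p reads / 5p reads), HT29 minus HCT15, was 5.57 (interval 4.29 to 7.65) between spheres and 4.90 (3.81 to 6.39) between parental cells. Over 166 hairpins with at least 10 reads of both arms together in each sphere library, the middle 95% of this difference ran from -6.98 to 5.66, and 5 exceeded miR-142. Over 185 such hairpins in parental cells it ran from -7.59 to 5.64, and 12 exceeded miR-142. By its absolute gap averaged over cultures, miR-142 ranked 18 of 161. The leading arm differed between the lines in both cultures in 12 of 161 hairpins (7.45%), and with at least a 2-fold lead in every library in 6 (3.73%), miR-142 among them. In 10 of the 12 the 5p arm led in HT29. The remaining pair, in which the 3p arm led in HT29, was miR-142 and miR-199b, the second named after its values were seen. The cell line and the way the file was made cannot be told apart here.

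**Figure D2:**
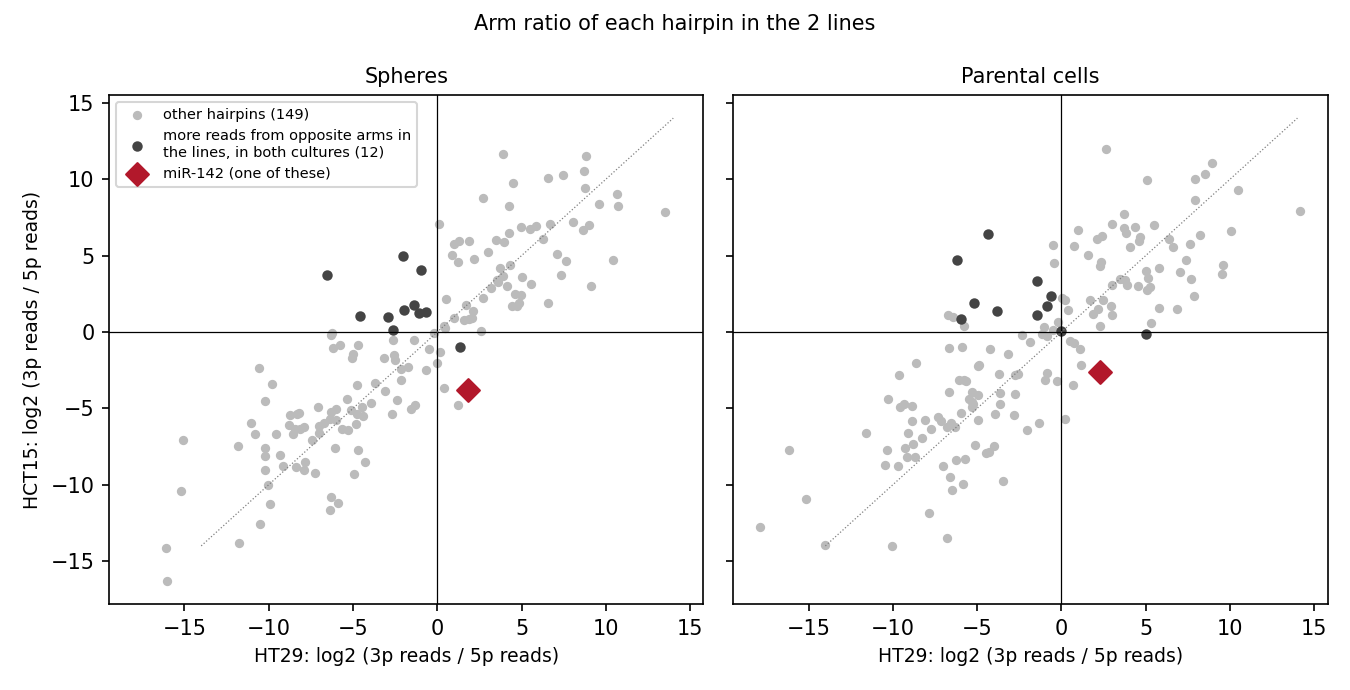
Log2 ratio of 3p to 5p reads of each hairpin in HT29 (horizontal) against HCT15 (vertical), in spheres (left) and parental cells (right); each point is 1 of 161 hairpins with at least 10 reads in every library. miR-142 (diamond) lies below and to the right of the axes' crossing, with more 3p reads in HT29 and more 5p reads in HCT15, and dark points are the 12 hairpins whose leading arm differed between the lines in both cultures.

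In HT29, spheres held relatively more miR-142-5p against miR-142-3p than parental cells did, by an amount within the middle 95% of hairpins. There the log2 arm ratio was 1.80 in spheres and 2.30 in parental cells, a difference of -0.50 (interval -0.68 to -0.33). Over 138 HT29 hairpins with at least 10 reads of each arm in both libraries, the median absolute difference was 0.70 and the middle 95% ran from -2.40 to 2.08. In HCT15 the log2 arm ratio was -3.77 in spheres and -2.60 in parental cells, a difference of -1.17 (interval -3.54 to 0.84), which was not distinguishable from 0 at this depth. Over 176 HCT15 hairpins with at least 10 reads of both arms together in each library, the middle 95% ran from -2.60 to 3.07. This looser rule was used because miR-142-3p had fewer than 10 reads in both HCT15 libraries. Under the rule used for HT29, which miR-142 does not meet in HCT15, 91 hairpins gave a middle 95% of -1.39 to 1.13.

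Of the other hairpins, miR-486 and miR-150 were read mostly from the 5p arm, and miR-144 and miR-223 had too few reads for a narrow estimate. miR-486-5p had 81 reads against 1 of miR-486-3p in HCT15 spheres, and 137 against 4 in HCT15 parental cells. The 3p share was thus 1.22% (interval 0.0309 to 6.61) and 2.84% (0.778 to 7.10). In HT29 miR-486-3p had 0 reads in both libraries. miR-150-3p had 7 reads in HT29 spheres, a 3p share of 6.60% (2.70 to 13.1). It had 0 in HT29 parental cells, where 0 of 111 reads allows a 3p share of up to 2.70% by the 3-read limit. By the exact interval this share could reach 3.27%, so the exact intervals of the 2 cultures overlap. For miR-144, 3 of 27 reads in HT29 spheres were of the 3p arm (11.1%, interval 2.35 to 29.2), and 0 of 7 in HT29 parental cells, which allows up to 42.9%. miR-223 had 1 read in all 4 libraries together.

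Between spheres and parental cells, miR-142-5p was higher in spheres of both lines, and miR-150-5p was lower in HT29 spheres. Log2 ratios put spheres over parental cells; scaling was by TMM, and the prior count was 2 reads. For miR-142-5p the ratio was 0.92 (interval 0.77 to 1.08) in HT29 and 1.18 (0.65 to 1.81) in HCT15. Its sign held under 4 scalings (TMM, total reads, DESeq2 size factors and upper quartile), with a range of 0.45 to 1.25 in HT29 and 0.86 to 1.42 in HCT15. For miR-142-3p the ratio was 0.42 (0.34 to 0.49) in HT29, but it was -0.052 when scaled by total reads, so its direction depended on the scaling. In HCT15 the ratio of miR-142-3p was -0.015 (-2.24 to 1.95), too wide to give a direction.

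For miR-150-5p in HT29 the ratio was -0.82 (interval -1.24 to -0.43), and it stayed below 0 under the 4 scalings, from -1.28 to -0.49. miR-486-5p had a ratio of 0.079 (-0.78 to 0.99) in HT29 and 0.028 (-0.39 to 0.44) in HCT15, each with a sign that changed with total reads. In HT29, miR-144-5p was at 0.96 (-0.15 to 2.57) and miR-451a at -0.34 (-1.74 to 0.97), neither distinguishable from 0 at this depth.

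**Figure D3:**
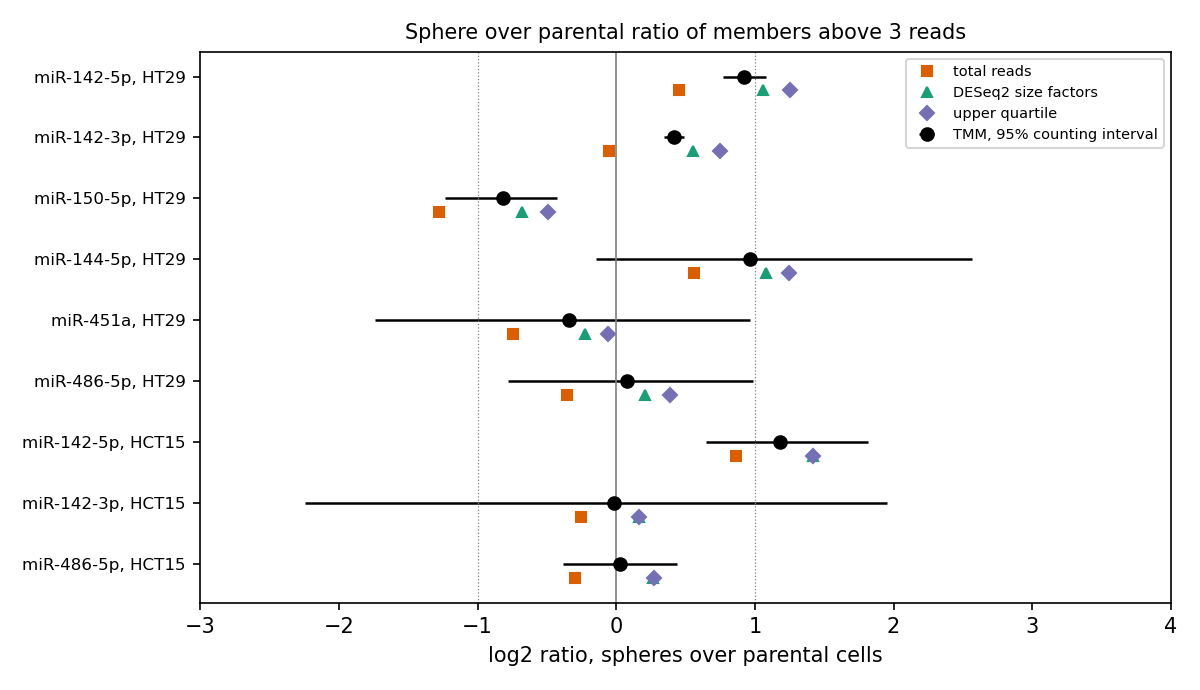
Log2 ratio of spheres over parental cells for each member with more than 3 reads in a library of the line. Circles with bars are TMM-scaled ratios with 95% counting intervals, other symbols are the same ratio under 3 other scalings, and dotted lines mark a 2-fold difference; miR-142-5p lies right of 0 in both lines and miR-150-5p left of 0 in HT29 under all of them.

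The members were set beside all miRNAs of the same level. In HT29, 3 members had a mean of at least 10 CPM, and 0 of them reached a 2-fold difference in either direction. Of all 361 miRNAs at that level, 11.4% reached it as higher in spheres and 21.9% as lower. The members had ratios of 0.92 (miR-142-5p), 0.42 (miR-142-3p) and -0.82 (miR-150-5p), and the median over all 361 was -0.17. In HCT15, 1 of 2 such members, miR-142-5p, was at least 2-fold higher, against 9.31% of 333 miRNAs, and 0 were at least 2-fold lower, against 6.31%. These members had ratios of 1.18 (miR-142-5p) and 0.028 (miR-486-5p), and the median over all 333 was 0.03. With 1 library per culture in each line these ratios have no replicate check.

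The only test the design allows takes the 2 lines as replicates. With cell line as a block, limma called 0 of 377 miRNAs (0.0%) at an adjusted p (Benjamini-Hochberg) under 0.05. Before adjustment, 26 miRNAs (6.9%) had a p under 0.05. edgeR's quasi-likelihood test on reads called 6 and DESeq2 5, none of them members. The 3 members with at least 10 CPM in at least 2 libraries were tested. The log2 fold change was 1.04 (SE 0.39, limma adjusted p = 0.705) for miR-142-5p. It was 0.20 (SE 0.39, adjusted p = 0.905) for miR-142-3p and 0.045 (SE 0.33, adjusted p = 0.977) for miR-486-5p.

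The pattern of miR-142-3p over the 4 libraries, high in HT29 and near 0 in HCT15, was most like those of miR-552, miR-338-5p, miR-194-5p, miR-338-3p and miR-455-5p. Likeness was the Euclidean distance between log2 (CPM + 1) values centred on each miRNA's mean, over 4 libraries. It was computed for 368 miRNAs that averaged 10 CPM or more. The distances ran from 0.50 for miR-552 to 1.10 for miR-455-5p. miR-552 was at 135 CPM in HT29 spheres, 91.1 in HT29 parental cells and 0 in both HCT15 libraries. For miR-142-5p the nearest were miR-135b-3p (0.39), let-7b-5p (0.51), miR-642b-3p (0.67), miR-200a-3p (0.73) and miR-30d-5p (0.74). miR-135b-3p was at 90.2 CPM in HT29 spheres, 88.2 in HT29 parental cells, 22.4 in HCT15 spheres and 15.7 in HCT15 parental cells.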

How the data were processed

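The TruSeq Small RNA kit was used on total RNA, per the labels' protocols. The authors deposited raw read counts per mature miRNA for HT29 and RPKM for HCT15, per the file headers. The headers name miRBase R19, and the submitters' processing notes name hg19. Aligner, trimming and handling of multiply mapped reads: not given in the sources used here.

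In the HCT15 files the value of 1 read grew with mature length L as L / (L + 9.00), the constant being fitted. It was 0.263 in spheres and 0.162 in parental cells at 22 bases. Values divided by it gave whole reads, to 0.02 reads, for 73.9% of 245 low values in spheres and 72.1% of 537 in parental cells. A step that ignores length gave 42.0% and 46.6%. Names without a RefSeq length were given 22 bases. The commonest sphere value was taken as 2 reads; a smaller step would raise the read number, not the CPM. Reads were rounded. HT29 files list 1921 names and HCT15 files 2041, and the 1882 shared names entered scaling and tests.

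The log2 of TMM-scaled CPM plus 1 was tested with limma 3.58.1 in R 4.3.3, with a mean-variance trend. A miRNA was tested if 2 or more libraries reached 10 CPM; the pseudocount understates fold changes of scarce miRNAs. There was 1 residual degree of freedom, and the median prior was 2.63. No label says whether cultures were repeated, so the 2 lines are the only replicates. The variance of each miRNA was drawn toward the trend over all tested miRNAs. Its p-value therefore does not measure its own spread between the lines alone. edgeR 4.0.16 and DESeq2 1.42.0 on reads were alternatives. Ratios, arm ratios and exact binomial intervals came from Python 3.11.15 with scipy 1.17.1; arm ratios used a prior count of 0.5 per arm. Scripts were tested on simulated data. All 8 members and their other arms were named, with the wider list, neighbours within 10 kb and the 5 nearest patterns of the 2 members with the highest mean. Members and lists were chosen with earlier results of these data known.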

Additional observations from a re-analysis of the deposited data

How the results depend on the processing

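With 1 library per culture no difference within a line can be checked against replicates. Against TMM, total reads shifted log2 ratios by -0.47 for HT29 and -0.33 for HCT15 before the prior count, which makes the shift smaller for scarce miRNAs. The labels give no replicate numbers; limma paired the cultures of a line through the cell line block. The 0 calls of limma became 6 without a filter on low values, 6 with edgeR's quasi-likelihood test and 5 with DESeq2 on reads, with no member among them; the cause was not tested. Leaving out a line leaves no test. The log2 fold change across lines of miR-142-3p was -0.14 and that of miR-486-5p -0.29 with total reads. Without either line that of miR-142-3p ranged from -0.015 to 0.42, and -0.015 was the value without HT29. In HT29 the ratio of miR-142-3p was -0.052 with total reads. Members at least 2-fold higher in HT29 spheres numbered 1 with DESeq2 size factors and 1 with the upper quartile, and those at least 2-fold lower 1 with total reads, when miR-150-5p passed. In HCT15 spheres 0 were 2-fold higher with total reads. At a level of 1 CPM the members expressed were 5 in HT29 spheres and 6 in HT29 parental cells; at 50 CPM they were 0 in HCT15 spheres and 0 in HCT15 parental cells. Of 45 within-line ratios under other settings, 39 stayed within their counting intervals, 5 moved outside with the same sign and 1 with it reversed. Among the 39, signs also changed within wide intervals. miR-486-5p did so with total reads (-0.36 in HT29 and -0.29 in HCT15). miR-142-3p in HCT15 did so with DESeq2 size factors (0.17) and the upper quartile (0.17). All 24 arm ratios and changes of arm ratios under other prior counts stayed within their counting intervals. Where the 3p arm had 0 reads, the interval has no lower end, so this check could hardly fail. There miR-150 in HT29 parental cells went from -7.80 to -5.82 with a prior count of 2 per arm.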
